A study of Homo sapiens with 12 samples.

Results

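SMARCA4 encodes BRG1, an ATPase of the SWI/SNF complex, which slides and evicts nucleosomes and so sets which promoters and enhancers are open. The genes described here are those whose transcript level was at least doubled in BRG1 depleted LNCaP cells at both time points of the study. A protein-coding or lncRNA gene was a member when the mean of its 4 SMARCA4 siRNA libraries was at least 1.5 TPM (transcript level scaled to gene length and to a fixed library total) at 72 h and at 144 h, and at least 2 times the mean of the control libraries of the same time. Each SMARCA4 siRNA library also had to lie above both control libraries of its time. By this rule 86 genes were chosen out of 63568 in the table, 79 protein-coding and 7 lncRNA, which is 0.631% of the 13627 protein-coding or lncRNA genes that passed the filter for testing. All 86 passed that filter, at least 1 TPM in at least 2 libraries. The members were chosen by these depleted against control values at both times, so those values are given as a description with no test. Leaving out si-NT 72 h replicate 2 gave 166 members, 76 of them among the 86.

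LNCaP is an androgen-responsive line from a lymph node metastasis of prostate cancer. The cells received a non-targeting siRNA pool (si-NT) or 1 of 2 siRNAs against SMARCA4, and poly(A) RNA was sequenced 72 h and 144 h later. The cells collected at 144 h had been split and transfected again with the same siRNA at 72 h, in the si-NT arm as well. Each siRNA had 2 libraries at each time, which gave 12 libraries in 4 groups: si-NT 72 h (n = 2), BRG1 depleted 72 h (n = 4), si-NT 144 h (n = 2) and BRG1 depleted 144 h (n = 4). The deposited table numbers the siRNAs 2 and 3 and these numbers are used here, but the sample labels number them 1 and 2, and 1 depleted library of 72 h, replicate 1, is siRNA2 in its title and siRNA1 in its treatment. Which labelled siRNA each number stands for is therefore not settled, and comparisons of siRNA 3 with siRNA 2 rest on the table's own numbers. Nothing in the labels says that replicates were separate cultures, so p-values measure only the spread between these libraries.

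SMARCA4 itself was at 97.0 and 73.4 TPM in si-NT and at 21.7, 19.02, 17.5 and 19.1 TPM in depleted libraries at 72 h. At 144 h, SMARCA4 was at 94.5 and 106.6 TPM in si-NT and at 15.9, 16.2, 11.4 and 17.4 TPM in depleted libraries. Every library thus went with its label as si-NT or depleted, but this level does not settle which siRNA it had. The prostate luminal markers HOXB13, KRT8 and KRT18 were present in every library, and of 12 markers of leukocytes, endothelium, fibroblasts and basal cells 11 were under 1 TPM in every library. The exception was the collagen gene COL1A1, at 3.10 to 9.11 TPM, while the fibroblast marker DCN was at most 0.02 TPM. The 4 fibroblast markers summed to 7.67 to 8.49 TPM in si-NT and 3.48 to 9.71 TPM in depleted libraries at 72 h. At 144 h they summed to 7.03 to 7.19 TPM in si-NT and 3.39 to 6.80 TPM in depleted libraries, and their part in the results was not tested. The spike-in controls took 0.805% to 1.97% of each library and 14706 to 15355 genes reached 1 TPM. TPM keeps no read depth, so the counting error behind a value is unknown and the precision is read from the replicates.

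The members included a suppressor of cytokine signalling and its antisense transcript, neuropeptide and adrenergic receptors, and a potassium channel. They also included a secreted signalling antagonist, a plasma carrier protein, and proteins of vesicle release and lysosomal lipid transport. Most began low. The si-NT mean was under 1 TPM at both times in 21 members and over 10 TPM at both in 15, and the median si-NT level of the members was 1.65 TPM at 72 h. Genes with at least 1.5 TPM in depleted cells at both times had a median of 17.6 TPM there. The rule set its TPM limit on the depleted libraries only and asked for a doubling over si-NT. Low si-NT levels are therefore partly built into the choice. The median fold was 2.33 at 72 h, with a range of 2.00 to 8.47, and 3.70 at 144 h, with a range of 2.03 to 55.05. Over all protein-coding or lncRNA genes tested the medians were 1.05 and 1.02. At 144 h, 26 members were at least 5-fold and 7 at least 10-fold higher, and 78 of the 86 had their larger fold at that time. Rescaled to the spike-ins, the median of all genes moved to -0.11 at 72 h and -0.31 at 144 h on the log2(TPM + 1) scale. All 86 were then higher than si-NT at both times, a direction that the choice by doubling largely fixed, and 32 met the whole rule. In bulk RNA, more cells with a transcript and more RNA per cell cannot be told apart.

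**Figure D1:**
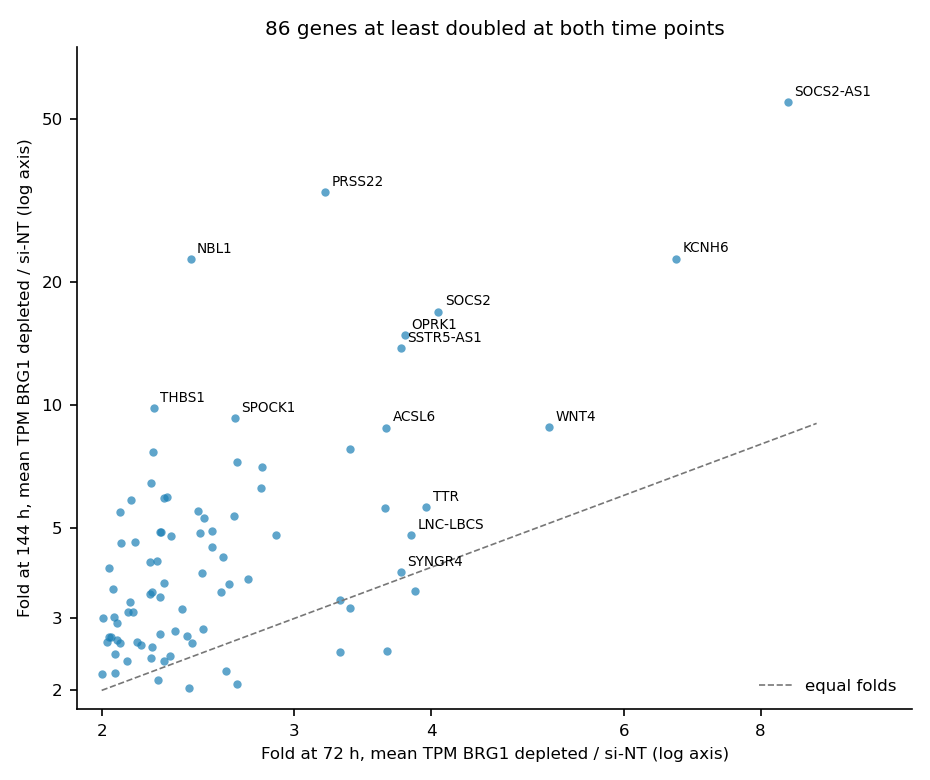
Fold of mean TPM in BRG1 depleted over si-NT libraries at 72 h (x, log axis) and at 144 h (y, log axis) for the 86 members, 1 point a gene, with the line of equal folds dashed. The points lie above the line in 78 members, and SOCS2-AS1, PRSS22, KCNH6 and NBL1 reach over 20-fold at 144 h.

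The libraries of each gene are given below as replicates 1 and 2 of si-NT, then replicates 1 and 2 of siRNA 2, then replicates 1 and 2 of siRNA 3. The rule fixed that the depleted libraries of a time lie above its si-NT libraries. Against the si-NT libraries of both times together, all 4 depleted libraries were higher in 83 members at 72 h and in 85 at 144 h. The rule fixed most of this as well, so these counts are only a description. The exceptions were LNC-LBCS, ID2 and CYP2J2 at 72 h and HES6 at 144 h.

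Cytokine receptors signal through JAK kinases and STAT factors, and SOCS proteins are made in answer and shut the receptors down. SOCS2, which restrains growth hormone signalling, was among the members with its antisense lncRNA SOCS2-AS1. SOCS2 (ENSG00000120833.9, chr12:93963590-93977263, plus strand) was at 3.63 and 4.14 TPM in si-NT libraries and 10.6, 16.5, 19.7 and 16.3 TPM in BRG1 depleted libraries at 72 h. At 144 h, SOCS2 was at 1.65 and 1.63 TPM in si-NT libraries and 24.2, 32.1, 30.9 and 23.5 TPM in BRG1 depleted libraries. This was 4.06-fold higher at 72 h and 16.9-fold at 144 h, and its si-NT level was lower at 144 h than at 72 h in both replicates. SOCS2-AS1 (ENSG00000246985.3, chr12:93935798-93965544, minus strand) was at 0.29 and 0.26 TPM in si-NT libraries and 1.24, 3.33, 2.68 and 2.07 TPM in BRG1 depleted libraries at 72 h. At 144 h, SOCS2-AS1 was at 0.18 and 0.02 TPM in si-NT libraries and 5.33, 7.51, 5.37 and 3.81 TPM in BRG1 depleted libraries. The lncRNA was 8.47-fold higher at 72 h and 55-fold at 144 h, against si-NT means of 0.275 and 0.1 TPM, so its 144 h fold rests on a very low denominator. On the log2(TPM + 1) scale the SOCS2-AS1 difference was 1.34 at 72 h and 2.54 at 144 h.

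ZC3H12A encodes Regnase-1, an endoribonuclease that degrades cytokine mRNAs, and ZC3H12A-DT is the lncRNA transcribed away from it. ZC3H12A (ENSG00000163874.8, chr1:37940181-37949978, plus strand) was at 17.9 and 35.8 TPM in si-NT libraries and 57.9, 117, 53.4 and 42.8 TPM in BRG1 depleted libraries at 72 h. At 144 h, ZC3H12A was at 15.2 and 13.8 TPM in si-NT libraries and 79.1, 82.9, 55.4 and 44.2 TPM in BRG1 depleted libraries. The gene was 2.52-fold higher at 72 h and 4.5-fold at 144 h, and siRNA 2 replicate 2 at 72 h was far above the other libraries. ZC3H12A-DT (ENSG00000233621.1, chr1:37816535-37940033, minus strand) stood at 5.36 and 9.79 TPM in si-NT libraries and 14.6, 24.2, 14.2 and 14 TPM in BRG1 depleted libraries at 72 h. At 144 h, ZC3H12A-DT stood at 5.32 and 5.88 TPM in si-NT libraries and 19.5, 24.9, 23.5 and 24.3 TPM in BRG1 depleted libraries. The divergent transcript was 2.21-fold higher at 72 h and 4.12-fold at 144 h, with the same siRNA 2 library as its highest at 72 h. RAET1G, a ligand for the killer cell receptor NKG2D, had si-NT levels below 1 TPM. RAET1G (ENSG00000203722.3, chr6:150238014-150244257, minus strand) stood at 0.44 and 0.83 TPM in si-NT libraries and 1.85, 2.08, 1.08 and 1.74 TPM in BRG1 depleted libraries at 72 h. At 144 h, RAET1G stood at 0.6 and 0.55 TPM in si-NT libraries and 5.79, 3.7, 2.78 and 4.34 TPM in BRG1 depleted libraries. That was 2.66-fold and 7.22-fold for the 2 times. The beta-defensin DEFB132 was 2.58-fold higher at 72 h and 4.23-fold at 144 h. HERC5, an interferon-induced ligase that attaches ISG15, was 2.4-fold higher at 72 h and 2.03-fold at 144 h, the smallest 144 h fold of the members.

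Receptors for hormones and transmitters sit at the cell surface and mostly act through G proteins. OPRK1, the kappa opioid receptor, is known as a gene that androgen represses in prostate cells. OPRK1 (ENSG00000082556.6) was read at 0.26 and 0.88 TPM in si-NT libraries and 1.72, 3.42, 1.48 and 2.01 TPM in BRG1 depleted libraries at 72 h. At 144 h, OPRK1 was read at 0.53 and 0.43 TPM in si-NT libraries and 5.49, 5.35, 8.76 and 8.8 TPM in BRG1 depleted libraries. Its mean was 3.79-fold higher at 72 h and 14.8-fold at 144 h, and at 144 h the siRNA 3 libraries were above the siRNA 2 libraries. SSTR5, a somatostatin receptor, and the antisense lncRNA SSTR5-AS1 were both members. SSTR5 (ENSG00000162009.7, chr16:1122747-1131454, plus strand) was read at 2.54 and 3.64 TPM in si-NT libraries and 6.63, 9.26, 5.39 and 6.56 TPM in BRG1 depleted libraries at 72 h. At 144 h, SSTR5 was read at 3.37 and 3.69 TPM in si-NT libraries and 7.45, 7.25, 6.41 and 8.91 TPM in BRG1 depleted libraries. SSTR5 was 2.25-fold higher at 72 h and 2.13-fold at 144 h, similar at the 2 times. SSTR5-AS1 (ENSG00000261713.2, chr16:1114087-1128731, minus strand) was read at 0.82 and 2.47 TPM in si-NT libraries and 4.41, 10, 5.68 and 4.6 TPM in BRG1 depleted libraries at 72 h. At 144 h, SSTR5-AS1 was read at 1.14 and 0.76 TPM in si-NT libraries and 14.9, 8.27, 11.9 and 17.2 TPM in BRG1 depleted libraries. The antisense transcript was 3.76-fold higher at 72 h and 13.8-fold at 144 h, with wide spread among the depleted libraries of each time.

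ADRA2C encodes the alpha-2C adrenergic receptor. ADRA2C (ENSG00000184160.6, chr4:3768075-3770253, plus strand) was read at 1.15 and 1.67 TPM in si-NT libraries and 3.51, 5.02, 3.58 and 3.69 TPM in BRG1 depleted libraries at 72 h. At 144 h, ADRA2C was read at 1.15 and 1.71 TPM in si-NT libraries and 12.8, 11, 6.07 and 10.4 TPM in BRG1 depleted libraries. It was 2.8-fold higher at 72 h and 7.03-fold at 144 h, and siRNA 3 replicate 1 was the lowest of the depleted libraries at 144 h. KCNH6, a voltage-gated potassium channel of the ERG family, was well under 1 TPM in si-NT cells. KCNH6 (ENSG00000173826.10, chr17:61600695-61626338, plus strand) was read at 0.17 and 0.33 TPM in si-NT libraries and 1.55, 2.49, 1.52 and 1.14 TPM in BRG1 depleted libraries at 72 h. At 144 h, KCNH6 was read at 0.27 and 0.09 TPM in si-NT libraries and 5.08, 4.7, 3.4 and 3.21 TPM in BRG1 depleted libraries. KCNH6 was 6.7-fold higher at 72 h and 22.8-fold at 144 h, and the lowest depleted library at 144 h was still 11.9 times the highest si-NT library. The orphan receptor GPR63 was 2.31-fold higher at 72 h and 2.43-fold at 144 h. FGFR3, a fibroblast growth factor receptor, was 2.25-fold higher at 72 h and 4.16-fold at 144 h. The cation channel TRPC1 was 2.37-fold higher at 72 h and 3.17-fold at 144 h. DISP2, of the Dispatched family of hedgehog release proteins, was 3.87-fold higher at 72 h and 3.5-fold at 144 h.

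Several members are secreted or built into the matrix. WNT4 is a ligand of the WNT pathway, which controls cell fate in gland development. WNT4 (ENSG00000162552.10, chr1:22443806-22470462, minus strand) was found at 0.75 and 0.67 TPM in si-NT libraries and 3.08, 3.7, 3.7 and 4.09 TPM in BRG1 depleted libraries at 72 h. At 144 h, WNT4 was found at 0.64 and 0.96 TPM in si-NT libraries and 6.5, 6.23, 5.86 and 9.6 TPM in BRG1 depleted libraries. WNT4 was 5.13-fold higher at 72 h and 8.81-fold at 144 h, and its 4 depleted libraries at 72 h were tightly grouped. TTR, transthyretin, carries thyroxine and retinol-binding protein in plasma and is known from liver and choroid plexus. TTR (ENSG00000118271.5, chr18:29136972-29178796, plus strand) was found at 3.53 and 3.36 TPM in si-NT libraries and 17.6, 9.5, 12.1 and 15.4 TPM in BRG1 depleted libraries at 72 h. At 144 h, TTR was found at 3.86 and 4.52 TPM in si-NT libraries and 28.3, 22.3, 16.7 and 26.8 TPM in BRG1 depleted libraries. The TTR mean was 3.96-fold higher at 72 h and 5.62-fold at 144 h, and either siRNA had a high and a low library at each time. NBL1 encodes DAN, a secreted antagonist of BMP ligands. NBL1 (ENSG00000158747.9, chr1:19923473-19984949, plus strand) was found at 1.15 and 0.71 TPM in si-NT libraries and 1.56, 3.1, 2.6 and 1.71 TPM in BRG1 depleted libraries at 72 h. At 144 h, NBL1 was found at 0.72 and 0.53 TPM in si-NT libraries and 13.1, 15.4, 12 and 16.3 TPM in BRG1 depleted libraries. NBL1 was 2.41-fold higher at 72 h and 22.7-fold at 144 h, with the depleted libraries of the 2 times far apart. NBL1 overlaps 3 annotated genes on its own strand, so reads may be shared with them.

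PRSS22 is a secreted serine protease of epithelia. PRSS22 (ENSG00000005001.5, chr16:2902731-2908171, minus strand) was found at 0.43 and 0.9 TPM in si-NT libraries and 2.33, 3.67, 1.57 and 0.94 TPM in BRG1 depleted libraries at 72 h. At 144 h, PRSS22 was found at 0.32 and 0.36 TPM in si-NT libraries and 13.4, 10.6, 8.57 and 12.5 TPM in BRG1 depleted libraries. PRSS22 was 3.2-fold higher at 72 h and 33.2-fold at 144 h, and siRNA 3 replicate 2 at 72 h was barely above a si-NT library. THBS1, thrombospondin-1, is a matrix protein that binds integrins and activates latent TGF-beta. THBS1 (ENSG00000137801.9, chr15:39873280-39891667, plus strand) was found at 1.21 and 1.67 TPM in si-NT libraries and 2.34, 3.53, 3.45 and 3.54 TPM in BRG1 depleted libraries at 72 h. At 144 h, THBS1 was found at 1.09 and 0.69 TPM in si-NT libraries and 7.37, 5.86, 10.5 and 11.1 TPM in BRG1 depleted libraries. Its fold was 2.23 at 72 h and 9.79 at 144 h, and the siRNA 3 libraries were the higher ones at 144 h. SPOCK1, a proteoglycan of the testican family, was lowly expressed in si-NT. SPOCK1 (ENSG00000152377.8, chr5:136310987-136934068, minus strand) was found at 0.69 and 0.46 TPM in si-NT libraries and 0.87, 1.75, 1.79 and 1.68 TPM in BRG1 depleted libraries at 72 h. At 144 h, SPOCK1 was found at 0.81 and 0.6 TPM in si-NT libraries and 4.72, 2.8, 8.67 and 9.97 TPM in BRG1 depleted libraries. SPOCK1 was 2.65-fold higher at 72 h and 9.28-fold at 144 h, again with siRNA 3 above siRNA 2 at 144 h.

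Of the other secreted members, TGM2, a transglutaminase that crosslinks matrix proteins, was 2.23-fold higher at 72 h and 7.65-fold at 144 h. OLFM1, an olfactomedin secreted by neurons, was 2.3-fold higher at 72 h and 5.96-fold at 144 h. NPNT, the basement membrane integrin ligand nephronectin, was 2.52-fold higher at 72 h and 4.91-fold at 144 h. CLUL1, a relative of clusterin, was 2.46-fold higher at 72 h and 4.84-fold at 144 h. CPAMD8, of the complement C3 and alpha-2-macroglobulin family, was 2.28-fold higher at 72 h and 2.36-fold at 144 h. The serine protease PRSS23 was 3.3-fold higher at 72 h and 2.48-fold at 144 h and so went against most members in the order of its folds.

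**Figure D2:**
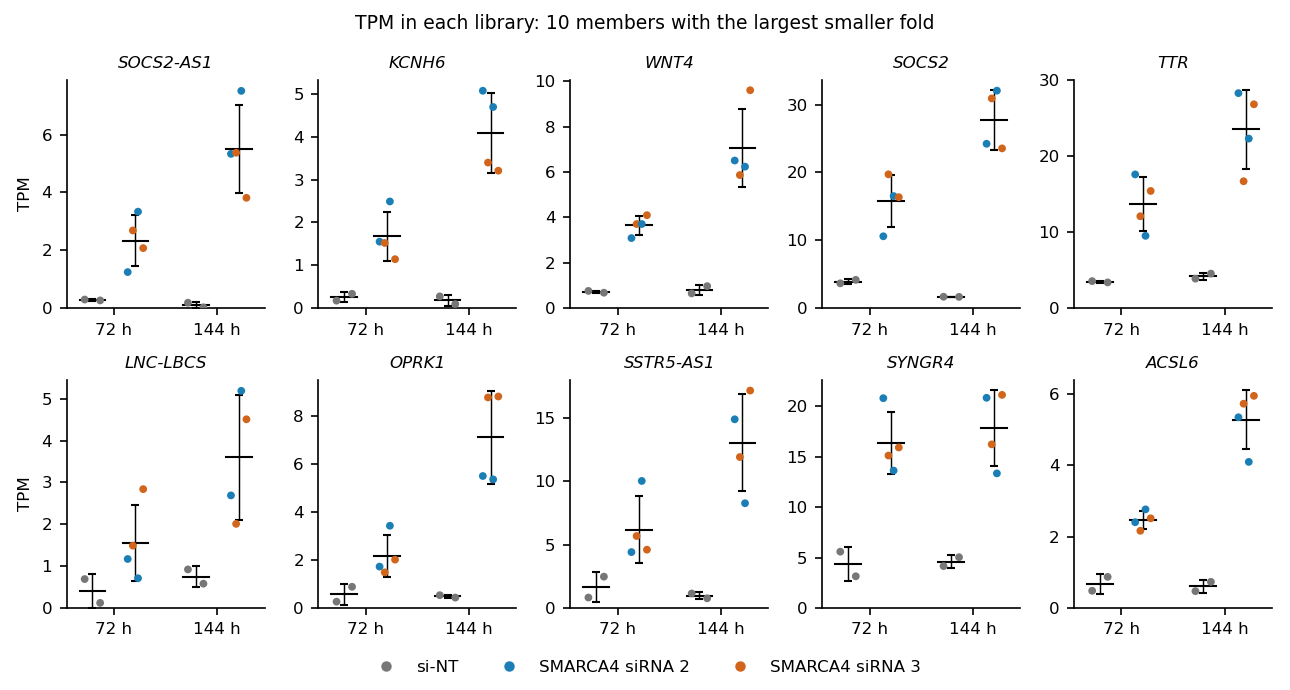
TPM in every library for the 10 members with the largest smaller of the 2 folds, with si-NT in grey, siRNA 2 in blue and siRNA 3 in orange, and bars giving the mean and SD of each group. In the SOCS2-AS1, KCNH6, WNT4, SOCS2, OPRK1 and ACSL6 panels the depleted libraries at 144 h lie above those at 72 h, whereas SYNGR4 is level over time at 16.4 and 17.9 TPM.

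Vesicle release needs synaptic vesicle proteins, Rab GTPases and their effectors, a machinery shared by neurons and secretory epithelia. SYNGR4 is a synaptogyrin, of a family of synaptic vesicle membrane proteins. SYNGR4 (ENSG00000105467.4, chr19:48867624-48879634, plus strand) showed 5.58 and 3.14 TPM in si-NT libraries and 20.8, 13.6, 15.1 and 15.9 TPM in BRG1 depleted libraries at 72 h. At 144 h, SYNGR4 showed 4.15 and 5.03 TPM in si-NT libraries and 20.9, 13.3, 16.2 and 21.1 TPM in BRG1 depleted libraries. This was 3.75-fold higher at 72 h and 3.9-fold at 144 h, so the depleted level was already reached at 72 h. SYTL2 encodes an effector of RAB27 that docks secretory granules, and was among the 5 members with the highest level. SYTL2 (ENSG00000137501.12, chr11:85405267-85522202, minus strand) showed 35.8 and 55.8 TPM in si-NT libraries and 103, 102, 87 and 126 TPM in BRG1 depleted libraries at 72 h. At 144 h, SYTL2 showed 35.9 and 40 TPM in si-NT libraries and 192, 189, 239 and 279 TPM in BRG1 depleted libraries. SYTL2 was 2.28-fold higher at 72 h and 5.93-fold at 144 h. RAB27B, the GTPase that such effectors bind, was 2.66-fold higher at 72 h and 2.08-fold at 144 h. The active zone scaffold PCLO was 2.07-fold higher at 72 h and 2.66-fold at 144 h, and RIMS3, another active zone protein, was 2.6-fold higher at 72 h and 2.23-fold at 144 h. SNAP91, a clathrin assembly protein of synapses, was 2.08-fold higher at 72 h and 2.61-fold at 144 h. RAB6D was 3.37-fold higher at 72 h and 3.18-fold at 144 h, but it has a near-identical copy, RAB6C, so the division of reads between them is uncertain.

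NPC1 moves cholesterol out of the lysosome, and its loss causes Niemann-Pick disease type C. NPC1 (ENSG00000141458.8, chr18:21086148-21166470, minus strand) showed 46.8 and 45.1 TPM in si-NT libraries and 144, 152, 117 and 118 TPM in BRG1 depleted libraries at 72 h. At 144 h, NPC1 showed 41.7 and 49.9 TPM in si-NT libraries and 260.2, 218, 194 and 206 TPM in BRG1 depleted libraries. NPC1 was 2.89-fold higher at 72 h and 4.79-fold at 144 h, and its lowest depleted library was above its highest si-NT library by more than the whole si-NT range. ACSL6 activates long-chain fatty acids to acyl-CoA. ACSL6 (ENSG00000164398.8, chr5:131285666-131347936, minus strand) showed 0.48 and 0.87 TPM in si-NT libraries and 2.4, 2.76, 2.16 and 2.51 TPM in BRG1 depleted libraries at 72 h. At 144 h, ACSL6 showed 0.47 and 0.73 TPM in si-NT libraries and 5.34, 4.09, 5.72 and 5.94 TPM in BRG1 depleted libraries. ACSL6 was 3.64-fold higher at 72 h and 8.79-fold at 144 h. CYP2J2 is an epoxygenase of arachidonic acid. CYP2J2 (ENSG00000134716.5, chr1:60358980-60392445, minus strand) showed 8.17 and 6.33 TPM in si-NT libraries and 15.3, 11.4, 14.2 and 19 TPM in BRG1 depleted libraries at 72 h. At 144 h, CYP2J2 showed 9.26 and 14.2 TPM in si-NT libraries and 36.4, 22.7, 26.8 and 51.5 TPM in BRG1 depleted libraries. It was 2.07-fold higher at 72 h and 2.93-fold at 144 h, and the si-NT libraries at 144 h were higher than at 72 h. SIDT2, a lysosomal membrane protein, was 2.22-fold higher at 72 h and 3.45-fold at 144 h.

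Further members handle lipids, sugars and small molecules. A4GALT, which makes the glycolipid globotriaosylceramide, was 2.45-fold higher at 72 h and 5.5-fold at 144 h. The glycosyltransferase B4GALNT3 was 2.17-fold higher at 72 h and 2.59-fold at 144 h. CRYM, a ketimine reductase that binds thyroid hormone in the cytosol, was 2.26-fold higher at 72 h and 4.89-fold at 144 h. The membrane protein SERINC5 was 2.15-fold higher at 72 h and 2.63-fold at 144 h, and ATP10D, a phospholipid flippase subunit, was 2.22-fold higher at 72 h and 2.56-fold at 144 h. Transporters were represented as well. The choline transporter-like SLC44A3 was 2.02-fold higher at 72 h and 2.62-fold at 144 h. SLC29A4, which carries monoamines, was 2.03-fold higher at 72 h and 2.71-fold at 144 h. RHBG, an ammonium transporter, was 2.11-fold higher at 72 h and 2.36-fold at 144 h. PRODH, the first enzyme of proline breakdown, was 2.05-fold higher at 72 h and 2.45-fold at 144 h, and the retinol-binding RBP7 was 2.22-fold higher at 72 h and 2.4-fold at 144 h.

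Of the transcription factors, ID2 and HES6 were the most abundant. ID proteins lack a DNA-binding domain and hold basic helix-loop-helix factors inactive, and HES proteins are helix-loop-helix factors tied to the Notch pathway. ID2 (ENSG00000115738.5, chr2:8818975-8824591, plus strand) lay at 22.2 and 16.5 TPM in si-NT libraries and 69.7, 27.5, 56.7 and 107 TPM in BRG1 depleted libraries at 72 h. At 144 h, ID2 lay at 22 and 31.3 TPM in si-NT libraries and 165, 115, 181 and 368 TPM in BRG1 depleted libraries. ID2 was 3.37-fold higher at 72 h and 7.77-fold at 144 h, but its depleted libraries were spread widely, and siRNA 2 replicate 2 at 72 h was below a si-NT library of 144 h. HES6 (ENSG00000144485.6, chr2:239146908-239149303, minus strand) lay at 162 and 233 TPM in si-NT libraries and 378, 616, 355 and 277 TPM in BRG1 depleted libraries at 72 h. At 144 h, HES6 lay at 163 and 111 TPM in si-NT libraries and 345, 415, 238 and 213 TPM in BRG1 depleted libraries. HES6 was 2.06-fold higher at 72 h and 2.21-fold at 144 h, with siRNA 2 above siRNA 3 in both replicates of each time. HES2 was 2.03-fold higher at 72 h and 3.98-fold at 144 h. The homeobox factor OTX1 was 2.04-fold higher at 72 h and 2.7-fold at 144 h. CEBPA, a leucine zipper factor of differentiation, was 2.39-fold higher at 72 h and 2.72-fold at 144 h, and the zinc finger gene ZNF846 was 2-fold higher at 72 h and 2.19-fold at 144 h.

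Among kinases, junctions and the cytoskeleton, TESK2, a kinase that phosphorylates cofilin, was 2.08-fold higher at 72 h and 4.58-fold at 144 h. RAPH1, lamellipodin, which brings actin regulators to the leading edge, was 2.32-fold higher at 72 h and 4.78-fold at 144 h. PIK3CB, a catalytic subunit of PI3 kinase, was 2.26-fold higher at 72 h and 2.75-fold at 144 h. KSR1, a scaffold of the RAF, MEK and ERK kinases, was 3.64-fold higher at 72 h and 2.5-fold at 144 h, the largest excess of the 72 h fold over the 144 h fold. EPB41L4A, of the band 4.1 family, was 3.63-fold higher at 72 h and 5.59-fold at 144 h. The protocadherin PCDH1 was 2.57-fold higher at 72 h and 3.48-fold at 144 h. The tight junction protein CGN, cingulin, was 2.33-fold higher at 72 h and 2.8-fold at 144 h, and PPL, the epithelial plakin periplakin, was 2.47-fold higher at 72 h and 2.83-fold at 144 h. RHOBTB1, an atypical GTPase, was 2.61-fold higher at 72 h and 3.64-fold at 144 h. The kinesin KIF12 was 2.26-fold higher at 72 h and 4.88-fold at 144 h, and CFAP45, a protein of cilia and flagella, was 2.72-fold higher at 72 h and 3.75-fold at 144 h.

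CDKN2B encodes p15, an inhibitor of the kinases CDK4 and CDK6, and was 2.08-fold higher at 72 h and 5.48-fold at 144 h. BMF, a pro-apoptotic protein of the BCL2 family, was 2.13-fold higher at 72 h and 5.83-fold at 144 h. PNMA1, a neuronal antigen, was 2.11-fold higher at 72 h and 3.11-fold at 144 h. The histone gene HIST2H2AA3 was 2.12-fold higher at 72 h and 3.3-fold at 144 h, but it has a near-identical copy and counting could split its reads.

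Some of the most abundant members have less settled roles. USP54 belongs to the ubiquitin peptidase family. USP54 (ENSG00000166348.13, chr10:75257296-75385875, minus strand) reached 102 and 165 TPM in si-NT libraries and 264, 359.6, 291 and 272 TPM in BRG1 depleted libraries at 72 h. At 144 h, USP54 reached 110.0 and 111 TPM in si-NT libraries and 428, 368, 423 and 323 TPM in BRG1 depleted libraries. USP54 was 2.22-fold higher at 72 h and 3.49-fold at 144 h, and 1 si-NT library at 72 h was well above the other. TMEM14A is a small membrane protein. TMEM14A (ENSG00000096092.5, chr6:52535911-52551386, plus strand) reached 57.5 and 48.2 TPM in si-NT libraries and 111, 134, 145 and 135 TPM in BRG1 depleted libraries at 72 h. At 144 h, TMEM14A reached 51 and 63.8 TPM in si-NT libraries and 274, 224, 350.0 and 364 TPM in BRG1 depleted libraries. TMEM14A was 2.48-fold higher at 72 h and 5.28-fold at 144 h, and every depleted library at 144 h was above every one at 72 h. BCAS1 is known from myelinating cells and from an amplified region in breast cancer. BCAS1 (ENSG00000064787.8, chr20:52553316-52687133, minus strand) reached 3.94 and 4.8 TPM in si-NT libraries and 9.27, 18.2, 11.8 and 6.99 TPM in BRG1 depleted libraries at 72 h. At 144 h, BCAS1 reached 4.99 and 4.57 TPM in si-NT libraries and 31.7, 27.9, 24.3 and 18.4 TPM in BRG1 depleted libraries. BCAS1 was 2.64-fold higher at 72 h and 5.35-fold at 144 h, with siRNA 2 above siRNA 3 at 144 h. LNC-LBCS is a lncRNA with si-NT levels below 1 TPM. LNC-LBCS (ENSG00000228412.2, chr6:19323659-19839311, minus strand) reached 0.69 and 0.12 TPM in si-NT libraries and 1.17, 0.71, 1.49 and 2.84 TPM in BRG1 depleted libraries at 72 h. At 144 h, LNC-LBCS reached 0.92 and 0.58 TPM in si-NT libraries and 2.69, 5.19, 2.01 and 4.51 TPM in BRG1 depleted libraries. It was 3.83-fold higher at 72 h and 4.8-fold at 144 h, but siRNA 2 replicate 2 at 72 h was only just above a si-NT library of its time.

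LRP11, a receptor-related membrane protein, lies 52.5 kb from RAET1G. LRP11 (ENSG00000120256.5, chr6:150139893-150185495, minus strand) reached 26.6 and 23.9 TPM in si-NT libraries and 55, 75.5, 64.4 and 54.8 TPM in BRG1 depleted libraries at 72 h. At 144 h, LRP11 reached 29.6 and 26.1 TPM in si-NT libraries and 122, 81.4, 117 and 111 TPM in BRG1 depleted libraries. LRP11 was 2.47-fold higher at 72 h and 3.87-fold at 144 h. The remaining protein-coding members were VSIG10L (2.05-fold and 3.55-fold for 72 h and 144 h), STUM (2.22-fold and 6.45-fold), RNF224 (2.26-fold and 3.38-fold), CCDC82 (2.42-fold and 2.62-fold), PRR16 (2.8-fold and 6.24-fold), C11orf52 (2.05-fold and 3.03-fold) and the Y-linked VCY (2.28-fold and 3.66-fold). C11orf52 is listed under a second identifier with identical values in all 12 libraries, and VCY has a near-identical copy. The remaining lncRNAs were LINC01978 (3.3-fold and 3.33-fold), LINC02560 (2.14-fold and 3.12-fold) and RUNDC3A-AS1 (2-fold and 3.01-fold).

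In all, 4 pairs of members overlapped or lay within 100 kb of each other on GRCh37. SOCS2-AS1 and SOCS2 overlap by 1.96 kb on opposite strands of chromosome 12, where their 5′ ends meet. SSTR5-AS1 and SSTR5 overlap by 5.99 kb on opposite strands of chromosome 16. ZC3H12A-DT and ZC3H12A on chromosome 1 are 0.147 kb apart and run in opposite directions, and LRP11 and RAET1G on chromosome 6 are 52.5 kb apart on the same strand. The library kit kept strand, but the strand setting of the authors' counting is not given in the sources used here. Where 2 genes overlap on opposite strands, their reads therefore cannot be told apart with certainty. In the annotation used here for positions, 54 of the 86 members overlap a gene on the opposite strand. On their own strand 26 members overlap a gene, NBL1 among them, and strand cannot resolve such an overlap. Most of the 26 are also among the 54, and 58 members overlap a gene on either strand. This annotation is a later GENCODE release than the authors counted into, so some of the overlapping genes may not have been counted. The matching shares over all tested genes are not given, so these counts do not set the members apart from other genes.

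**Figure D3:**
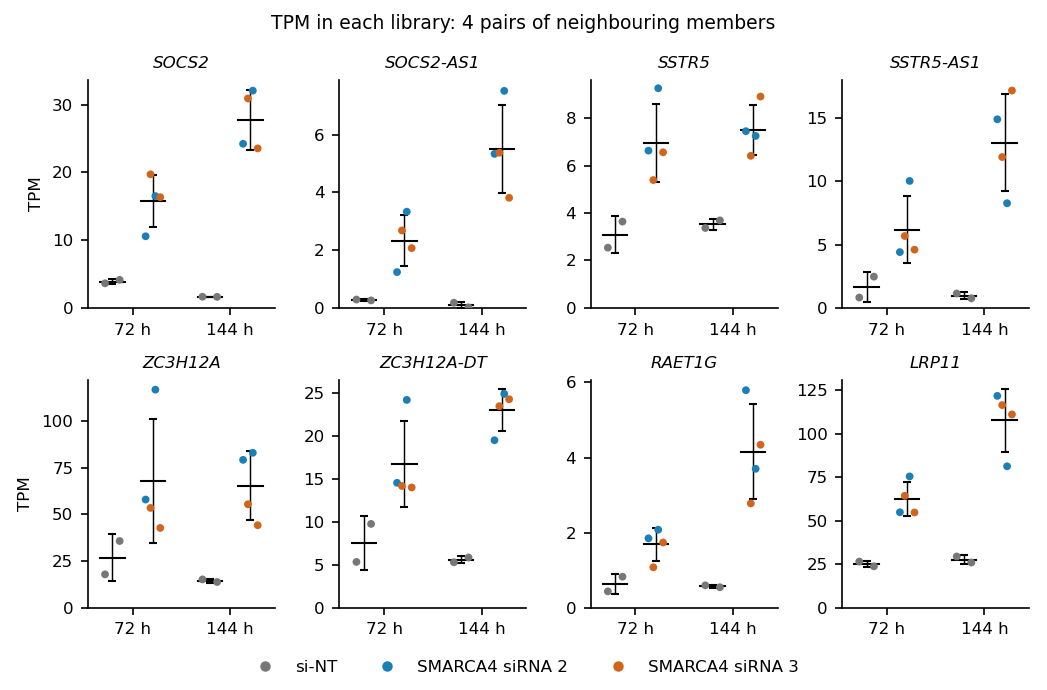
TPM in every library for the 4 pairs of neighbouring members, colours and bars as in the plot of the 10 members (mean and SD of 2 si-NT and 4 depleted libraries). Both genes of every pair have all depleted libraries above both si-NT libraries of that time, while SSTR5 stays at 6.96 and 7.51 TPM over time and SSTR5-AS1 is at 6.18 and 13.1 TPM.

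Sequences before the RefSeq starts are shown for the 3 genes of the head-to-head pairs that the RefSeq promoter table holds, since there a single stretch of DNA faces both members. Each is 250 bases long and was matched once, exactly, to GRCh37: SSTR5 at chr16:1128576-1128825 on the plus strand, SSTR5-AS1 at chr16:1128732-1128981 on the minus strand and ZC3H12A at chr1:37939931-37940180 on the plus strand. Capitals mark matches to the motifs searched.
SSTR5: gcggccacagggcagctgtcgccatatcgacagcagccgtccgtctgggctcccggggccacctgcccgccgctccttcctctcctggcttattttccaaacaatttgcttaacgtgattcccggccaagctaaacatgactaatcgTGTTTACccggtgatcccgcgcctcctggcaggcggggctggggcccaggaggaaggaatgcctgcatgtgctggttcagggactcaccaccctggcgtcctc
SSTR5-AS1: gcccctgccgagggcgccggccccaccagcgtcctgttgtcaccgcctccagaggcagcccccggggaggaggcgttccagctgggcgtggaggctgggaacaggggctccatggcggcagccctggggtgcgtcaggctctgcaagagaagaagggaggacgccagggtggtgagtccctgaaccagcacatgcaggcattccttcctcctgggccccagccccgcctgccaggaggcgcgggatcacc
ZC3H12A: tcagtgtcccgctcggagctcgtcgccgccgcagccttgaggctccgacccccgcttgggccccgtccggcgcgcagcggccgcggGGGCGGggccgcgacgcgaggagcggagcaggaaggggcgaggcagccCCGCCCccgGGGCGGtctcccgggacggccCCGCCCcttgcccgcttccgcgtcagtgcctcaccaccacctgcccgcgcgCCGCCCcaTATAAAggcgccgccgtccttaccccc
The RefSeq starts of SSTR5 and SSTR5-AS1 are 95 bases apart and point away from each other, and the 2 windows share 94 bases read from opposite strands. The capitals in SSTR5 are 1 match to the forkhead motif, and those in ZC3H12A are 5 matches to the GC box and 1 to the TATA box. The SSTR5-AS1 window has no capitals. The ZC3H12A window contains the annotated start of ZC3H12A-DT, at chr1:37940033. Guanine and cytosine made up 62.4%, 71.2% and 78.8% of the SSTR5, SSTR5-AS1 and ZC3H12A windows.

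RefSeq (GRCh38.p14) held a promoter window, 250 bases before to 50 after the start, for 65 of the 86 members. Their median GC content was 70.0%, beside 65.7% for 10467 tested genes and 58.3% for all 27305 promoters in the table. The GC box GGGCGG, on either strand, was in 54 of the 65 (83.1%), beside 70.7% of tested genes and 44.6% of all. The forkhead motif TGTTTAC or TGTTTGC was in 7 (10.8%), beside 5.02% of tested genes and 7.15% of all promoters. It was found in BMF, DEFB132, LINC01978, NBL1, RAB6D, SSTR5 and SSTR5-AS1. The SSTR5 and SSTR5-AS1 matches are the same site read from opposite strands. For SSTR5-AS1 it lies in the 50 bases after the start, which the printed window leaves out. TATAAA was in 6 (9.23%), beside 5.42% of tested genes. CCAAT was in 18 (27.7%), against 37.2% of tested genes. The E-box CACGTG was in 3 (4.62%), against 10.5%. The STAT palindrome was in 2, RIMS3 and THBS1 (3.08%, against 6.15%), and the AP-1 motif TGANTCA in 1, LNC-LBCS (1.54%, against 4.04%). No motif contains another of those searched. These shares describe letters in a window and were not tested.

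Whether both siRNAs gave the same levels was asked of siRNA 3 against siRNA 2. The rule did not use this difference itself. It did require every library of both siRNAs to lie above si-NT, so genes raised by only 1 siRNA could not be members. The test is therefore not independent of the choice, and the counts of doubled means only describe the values that chose the members. At 72 h, both siRNA means were at least 2 times the si-NT mean in 57 members, only that of siRNA 2 in 23 and only that of siRNA 3 in 6 (RAPH1, PNMA1, SNAP91, CYP2J2, PRODH and HES2). At 144 h, both were in 83, and the exceptions were HES6 and HERC5 with siRNA 2 only and RAB27B with siRNA 3 only. In limma, 0.141% of the 16337 genes differed between the siRNAs at 72 h (0.122% higher with siRNA 3 and 0.0184% lower) and 0.331% at 144 h (0.178% and 0.153%) at an adjusted p under 0.05. Of the members, 0 of 86 did at either time, and shares so small leave little room for a call among 86. At an unadjusted p under 0.05 in limma there were 10 members and 1361 of the 16337 genes at 72 h. At 144 h there were 14 members and 2175 genes. The smallest p of the members at 72 h belonged to VSIG10L, lower with siRNA 3 by a log2 difference of -0.65 (SE 0.19, limma adjusted p = 0.367), and the next to PRSS22, at -0.82 (SE 0.26, limma adjusted p = 0.409). VSIG10L also came first at 144 h, at -0.94 (SE 0.19, limma adjusted p = 0.101), ahead of SPOCK1, higher with siRNA 3 by 1.14 (SE 0.24, limma adjusted p = 0.118). With 2 libraries a siRNA, such values do not show that the siRNAs act alike.

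How the members moved between the times was asked within each condition. The rule used the libraries of both times but not their difference, so this comparison is not fully independent of how the members were chosen. In BRG1 depleted cells, 34 of 86 members rose from 72 h to 144 h in limma at an adjusted p under 0.05 (39.5%) and 0 fell, whereas 2.58% of all genes rose and 4.27% changed in either direction. The member median was 0.49 on the log2(TPM + 1) scale, against -0.04 over all genes tested, and 79 of 86 were positive. In si-NT cells, 0 members and 0% of all genes were called in limma, with 3 members and 671 genes at an unadjusted p under 0.05. There the member median was -0.04 and 34 of 86 were positive. This comparison had 2 libraries a time where depleted cells had 4, so fewer calls do not show that si-NT cells stayed level. The si-NT mean of SOCS2 went from 3.89 to 1.64 TPM and that of CYP2J2 from 7.25 to 11.7 TPM. Whether the change with time differed between the conditions was not tested. All 4 depleted libraries at 144 h lay above all 4 at 72 h in 38 members, among them the 34 called.

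NBL1 moved most, by 2.25 (SE 0.17, limma adjusted p = 0.000394). PRSS22 followed with 2.03 (SE 0.24, limma adjusted p = 0.00281). ID2 rose by 1.67 (SE 0.40, limma adjusted p = 0.0394), which was lost in 8 of 12 fits with a library left out. The matrix protein genes SPOCK1 and THBS1 rose by 1.48 (SE 0.29, limma adjusted p = 0.0201) and 1.18 (SE 0.19, limma adjusted p = 0.00911). The SPOCK1 call was lost without siRNA 2 72 h replicate 1 and without siRNA 3 144 h replicate 2, where the adjusted p reached 0.0517 in limma. OPRK1 rose by 1.36 (SE 0.22, limma adjusted p = 0.00911) and ADRA2C by 1.13 (SE 0.20, limma adjusted p = 0.0124). TMEM14A rose by 1.18 (SE 0.15, limma adjusted p = 0.0033). BCAS1 changed by 1.13 (SE 0.24, limma adjusted p = 0.0245) and CYP2J2 by 1.10 (SE 0.24, limma adjusted p = 0.0273), and each lost its call in 5 of the 12 fits, with a highest adjusted p of 0.0627 and 0.0763 in limma. In those fits the library left out was siRNA 2 144 h replicate 1, siRNA 2 72 h replicate 1 or siRNA 3 72 h replicate 1 for both genes, siRNA 2 144 h replicate 2 or siRNA 3 72 h replicate 2 for BCAS1, and siRNA 3 144 h replicate 2 or siRNA 2 72 h replicate 2 for CYP2J2. ID2 kept its call only without si-NT 72 h replicate 1 or 2, siRNA 2 144 h replicate 2 or siRNA 3 72 h replicate 2.

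By role, 6 of 12 secreted and matrix members, 4 of 9 receptors and channels, 4 of 7 cytokine and immune genes, 5 of 14 genes of lipids, transport and metabolism, 4 of 11 kinase, junction and cytoskeleton genes, 2 of 8 vesicle genes, 1 of 6 transcription factors, 2 of 4 genes of cell cycle, death and chromatin and 6 of 15 others rose with time. Beside the 10 genes with values above, those with a call included SYTL2, TESK2, STUM, BMF, SOCS2-AS1, KCNH6, RAET1G, RAPH1, ACSL6, CRYM, FGFR3, SOCS2, WNT4, LRP11, RHOBTB1, OLFM1, NPC1, DEFB132, PRR16, PCDH1, SLC44A3, C11orf52 and PNMA1. The 9 members whose depleted mean was not higher at 144 h were ZC3H12A, KSR1, CCDC82, CPAMD8, RIMS3, RHBG, PCLO, HES6 and HERC5. The difference was -0.49 for KSR1 (SE 0.16, limma adjusted p = 0.113) and -0.41 for HES6 (SE 0.27, limma adjusted p = 0.392). With 1 library left out, 18 members were called without siRNA 3 72 h replicate 1, and 22 without siRNA 2 72 h replicate 1 or without siRNA 3 72 h replicate 2. Rescaled to the spike-ins, 70 members were still higher at 144 h but only NBL1 and PRSS22 were called.

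**Figure D4:**
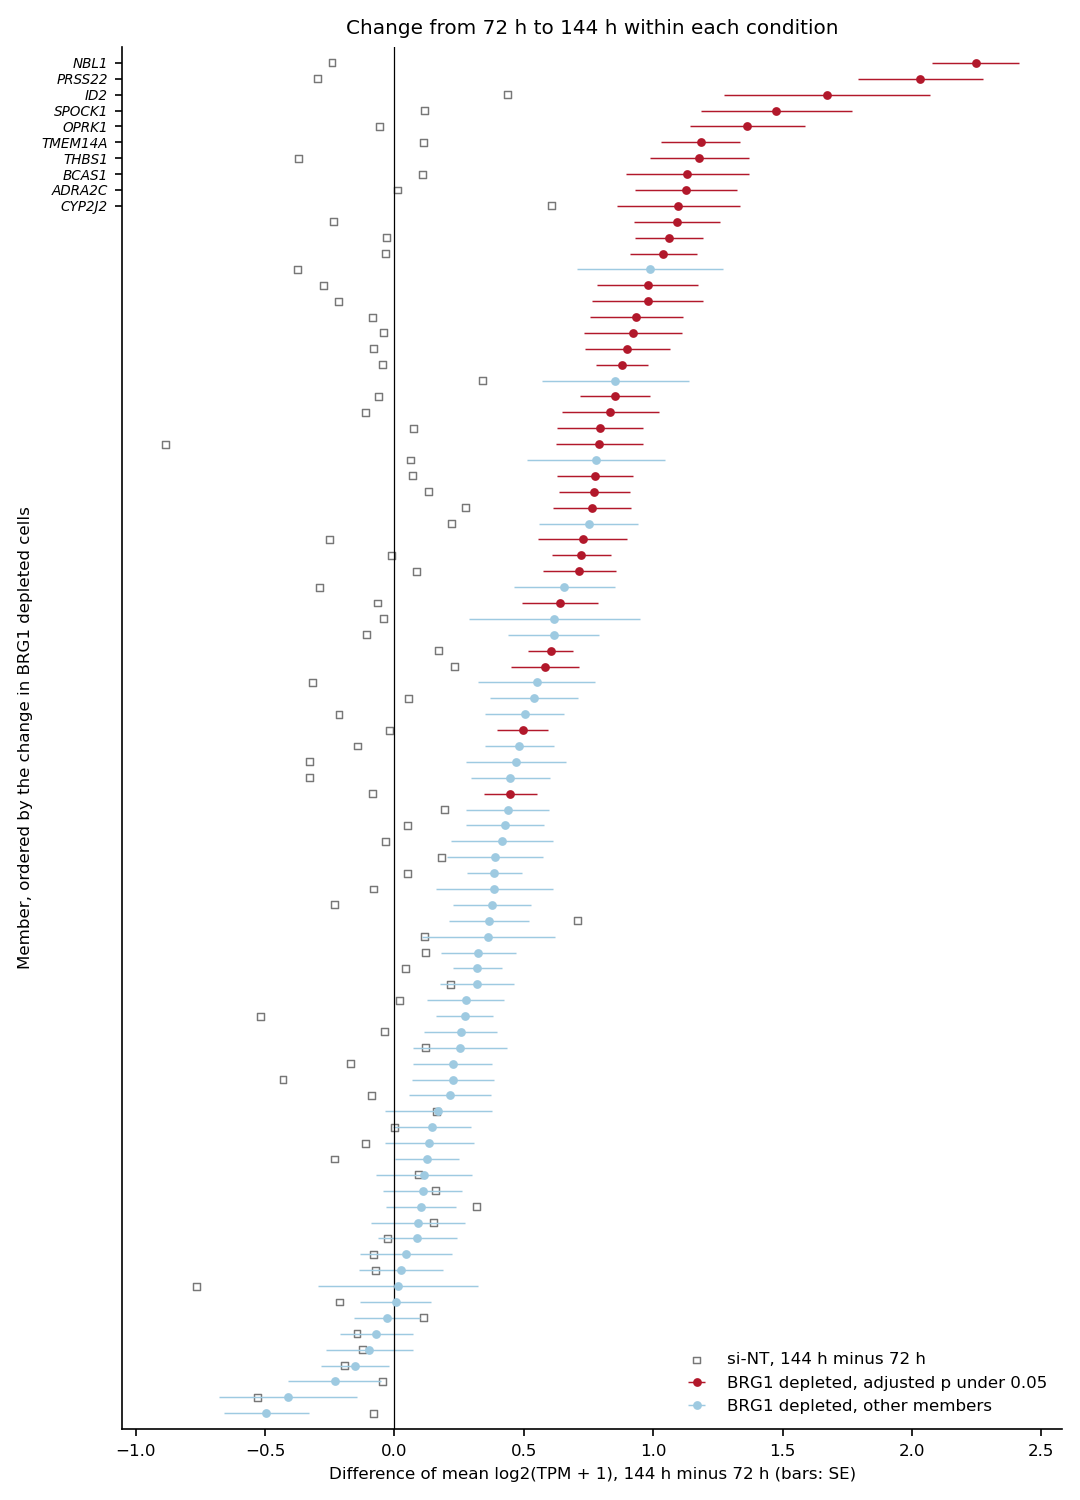
Difference of mean log2(TPM + 1) between 144 h and 72 h for each of the 86 members, within BRG1 depleted cells (circles, bars SE, red where the limma adjusted p was under 0.05) and within si-NT cells (open squares), with names for the 10 largest. The 34 red circles are all to the right of 0, led by NBL1 at 2.25 and PRSS22 at 2.03, and the squares scatter around 0 with a median of -0.04.

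Genes related to single members were then counted, leaving the members out. The limma comparison was depleted against si-NT, in which 1.13% of all genes tested were higher and 0.557% lower at 72 h, and 13.6% higher and 10.8% lower at 144 h. Beside NPC1, 13 of 27 other lysosome and intracellular cholesterol genes (48.1%) were higher at 144 h and 1 was lower, with a list median of 0.34 against 0.03 over all genes on the log2(TPM + 1) scale. The count was 6 when either si-NT 144 h library was left out. Rescaled to the spike-ins, 0 of the 27 were called and their median was -0.06, against -0.31 over all genes, with 20 above that median where 22 were before. NEU1, a lysosomal sialidase, had the largest difference of the list, 1.21 (SE 0.17, limma adjusted p = 0.00067), from 4.48 to 11.8 TPM. TFEB, the transcription factor that drives lysosomal genes, differed by 0.86 (SE 0.14, limma adjusted p = 0.00141), and CTSA, a lysosomal protease, by 0.75 (SE 0.14, limma adjusted p = 0.00309). ABCG1, a cholesterol exporter, differed by 0.81 (SE 0.26, limma adjusted p = 0.0396). At 72 h, 1 of the 27 was called, LIPA at 0.43 (SE 0.09, limma adjusted p = 0.0383).

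Beside SYNGR4, 6 of 13 other synaptic vesicle genes (46.2%) were higher at 144 h and 0 lower, and 0 differed at 72 h. After rescaling to the spike-ins 0 were called, with a list median of 0.13. The higher genes were led by SYT7, a calcium sensor of release, at 1.43 (SE 0.26, limma adjusted p = 0.00292), and by SYNGR3 at 1.28 (SE 0.14, limma adjusted p = 0.000198). CPLX1 followed at 1.06 (SE 0.18, limma adjusted p = 0.00225) and VAMP2 at 0.88 (SE 0.13, limma adjusted p = 0.0012). Beside KCNH6, 6 other voltage-gated potassium channels were tested, and at 144 h 4 were higher and 2 lower. KCNG1 was higher by 1.08 (SE 0.21, limma adjusted p = 0.00435) and KCNS3 lower, at -0.99 (SE 0.21, limma adjusted p = 0.0065). Mucin-type O-glycosylation, a list with 0 members, had 5 of 18 higher (27.8%) and 0 lower at 144 h, and 1 higher at 72 h. Rescaled to the spike-ins, 0 mucin-type O-glycosylation genes were called higher, and 0 of the potassium channels. The O-glycosylation list median was then -0.20, against -0.31 over all genes. Without si-NT 144 h replicate 1 the higher genes were 3 for O-glycosylation and 2 for the channels, and without si-NT 144 h replicate 2 they were 1 and 0. Leaving out siRNA 2 144 h replicate 1 gave 3 and 2, and the channels were also at 2 without siRNA 3 144 h replicate 1 or siRNA 2 144 h replicate 2. ST3GAL1, the sialyltransferase of core O-glycans, was at 203 TPM in si-NT and 347 TPM in depleted cells.

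The remaining lists held genes called in both directions or lower only. Of 20 further genes of SOCS family and STAT5 feedback, 1 was higher and 3 lower at 144 h. BCL6, a repressor that STAT5 controls, was lower by -0.97 at 72 h (SE 0.15, limma adjusted p = 0.0101) and by -1.44 at 144 h (SE 0.15, limma adjusted p = 0.000126). SOCS2 differed by 1.75 and 3.43 on that scale. Of 16 androgen-repressed genes other than OPRK1, 1 was higher and 8 lower at 144 h, and 4 were lower at 72 h. DDC, dopa decarboxylase, was lower by -2.02 (SE 0.22, limma adjusted p = 0.00175) and -3.05 (SE 0.22, limma adjusted p = 1.61e-05). Of 6 plasma protein genes other than TTR, 0 were higher and 1 lower, ALB, which went from 6.11 to 0.42 TPM at 144 h. Of 10 genes of thyroid hormone handling other than TTR and CRYM, 2 were higher and 3 lower, with DIO1, a deiodinase, lower at -1.55 (SE 0.41, limma adjusted p = 0.0186).

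WNT ligands and targets other than WNT4 had 4 of 23 higher and 5 lower at 144 h, the receptors FZD5 and FZD1 among the higher and LEF1 among the lower. ID factors and BMP targets other than ID2 had 3 of 17 higher and 2 lower. ID4 was higher by 1.49 (SE 0.43, limma adjusted p = 0.0258). Acyl-CoA synthetase and lipid droplet genes other than ACSL6 had 6 of 22 higher and 3 lower. SLC27A2, a fatty acid transporter, was higher by 1.10 (SE 0.11, limma adjusted p = 0.00011) and ACSL5 lower at -1.34 (SE 0.17, limma adjusted p = 0.000386). Of 3 cadherins other than PCDH1, CDH1 was higher and CDH26 lower. Interferon response genes other than HERC5 had 0 of 14 higher and 4 lower, MX1 and IFI44 among them. Of 24 p53 targets 0 were higher and 1 lower, TNFRSF10B. Of 24 cell cycle genes 0 were higher and 21 lower (87.5%), CDC6 and CDT1 among them, and the lower count was 10 without si-NT 144 h replicate 1 and 5 without si-NT 144 h replicate 2. The opioid and somatostatin receptor list had 2 tested genes, OPRK1 and SSTR5, and both were members. Rescaled to the spike-ins, 0 genes of any list were called higher at 144 h. Leaving out either si-NT 144 h library also thinned the calls: acyl-CoA synthetase and lipid droplet genes had 2 higher without replicate 1 and 1 without replicate 2, ID and BMP genes 1 and 0, and the lower interferon genes were 2 and 1. The thyroid list had 0 higher genes without either library. The WNT list had 2 and 3 higher genes and 1 and 0 lower genes without replicates 1 and 2, and its lower genes were 2 or 3 without a depleted library of 144 h, and 8 after median-of-ratios or quantile scaling. The 3 lower genes of the SOCS and STAT5 list were 1 or 2 in each fit with a library left out except those without si-NT 72 h replicate 1, si-NT 72 h replicate 2 or siRNA 2 72 h replicate 2, those of the thyroid list 2 and 1 without si-NT 144 h replicates 1 and 2, and the higher acyl-CoA synthetase and lipid droplet genes 3 without siRNA 2 144 h replicate 1. Counts of 1 or 2 in a direction at 144 h changed in at least 1 fit with a library left out in every list but the cadherins. At 72 h, the 4 lower androgen-repressed genes were 2 and 1 without si-NT 72 h replicates 1 and 2, and each list with 1 call in a direction had 0 without the latter.

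**Figure D5:**
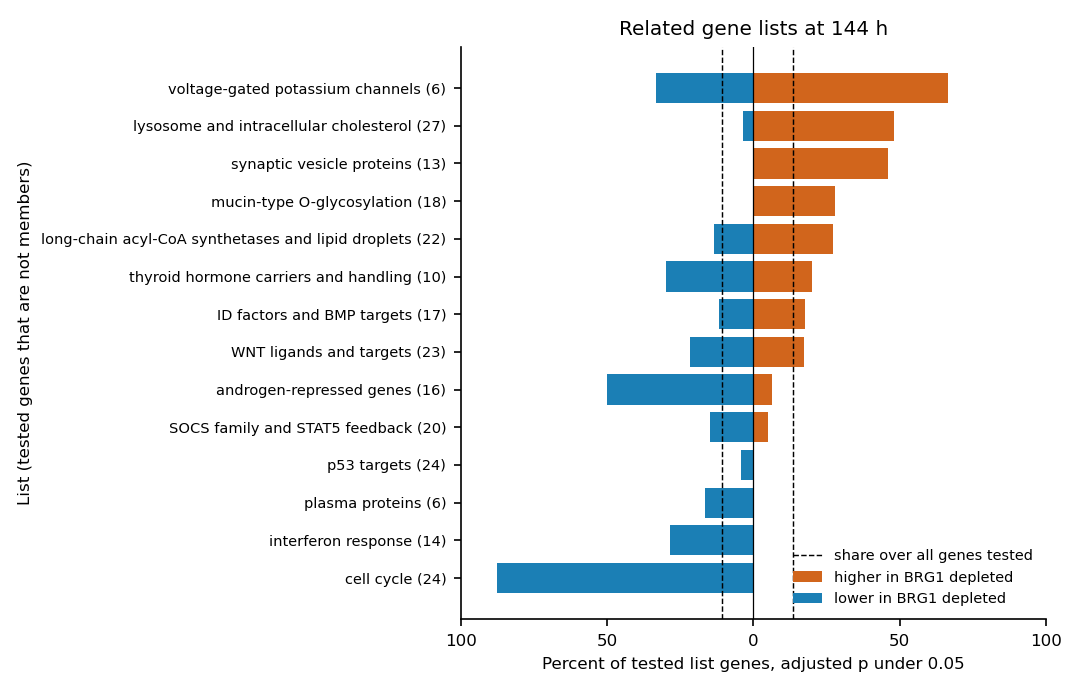
Percent of the tested genes of each list, members left out, with a limma adjusted p under 0.05 in depleted against si-NT libraries at 144 h, higher to the right and lower to the left, for the lists with at least 6 such genes (number in brackets). Dashed lines give the shares over all genes tested, 13.6% and 10.8%. The longest bars on the right are the potassium channels (66.7% of 6 genes), the lysosome (48.1%) and synaptic vesicles (46.2%). On the left the longest are the cell cycle (87.5%) and androgen-repressed genes (50.0%). Several other bars pass a line as well. Rescaled to the spike-ins, 0 genes of these lists were called higher. The lysosome and O-glycosylation medians turned negative but stayed above the median over all genes, -0.31.

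The limits of the rule were crowded at 72 h. In all, 232 genes met every other condition but missed the 72 h fold, whereas 6 missed the 144 h fold alone and 78 the 1.5 TPM limit alone. Just inside the 72 h limit were ZNF846 at 2.00, RUNDC3A-AS1 at 2.01 and SLC44A3 at 2.02, and just outside were KANK1 at 1.99, SNX22 at 1.99 and RCAN2 at 1.99. Just inside the 144 h limit were HERC5 at 2.03, RAB27B at 2.08 and SSTR5 at 2.13, and just outside were RAB6C at 1.98, NAP1L3 at 1.78 and MYCL at 1.77. The lowest depleted means inside the limit were 1.50 TPM for PRODH, 1.51 TPM for TGM2 and 1.52 TPM for SPOCK1. Just under it were NWD1 at 1.46 TPM, SEMA3B-AS1 at 1.36 TPM and WWC2 at 1.31 TPM. A mirrored rule, for genes at least halved at both times with the same limits, held 88 genes.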

How the data were processed

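Per the labels and the study's methods, the authors spiked ERCC controls into total RNA of LNCaP cells, made stranded mRNA libraries, trimmed paired-end reads with Trim Galore 0.11.2, aligned them to hg19 (GRCh37) with STAR 2.4.0j, counted them into GENCODE release 19 genes with featureCounts and deposited TPM. The methods name a spike-in normalisation of the read counts. The deposited TPM of every library, spike-ins included, have the same total, so no scaling of whole libraries to the spike-ins remains in them. TPM keeps no read depth, so no counting error is given. All 12 value columns were used, and the columns headed Scrambled were taken as the si-NT libraries. From the TPM, log2(TPM + 1) was fitted with limma 3.58.1 (lmFit and eBayes with a trend, R 4.3.3) over all 12 libraries for the 16337 genes that reached 1 TPM in 2 or more libraries. The time tests used 4 groups and the siRNA tests 6, with Benjamini-Hochberg adjustment over all genes tested, which is the adjustment of every adjusted p given. GENCODE release 44, in its version for GRCh37, gave symbols, biotypes and positions for 87.6% of genes. Promoters are RefSeq's. The procedure was tested on simulated data.

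Members, roles, lists and tests were chosen with earlier results of these data known. Members are named with both folds. Values in every library are given for the 10 members with the largest smaller fold, the 5 with the highest depleted level, the 10 largest differences among members called in a test, and members within 100 kb of another. List genes other than members are named where called, at most 4 a list. The lists cover SOCS and STAT5, thyroid hormone, plasma proteins, synaptic vesicles, ID and BMP, WNT, lysosome, potassium channels, cadherins, acyl-CoA synthetases, O-glycosylation, androgen-repressed genes, opioid and somatostatin receptors, p53, interferon and the cell cycle. The alternatives were a pseudocount of 0.1, 3 other scalings (ERCC spike-ins, median-of-ratios, quantile), other filters, a replicate block, no trend, other groupings, other limits of the rule, and each library left out in turn. Those for the lists were chosen after seeing the data. ChIP-seq was not used here, and a few member, marker, list and motif results are not reported here.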

Additional observations from a re-analysis of the deposited data

Results flagged for a closer look

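Among the 172 groups of 4 depleted libraries (86 members at 2 times), 10 held 1 library that stood apart from the other 3 by Dixon's criterion, which is 5.81% of the groups. Chance alone gives about 1 in 20.

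At 72 h, siRNA 2 replicate 2 was the high library for ADRA2C at 5.02 TPM, with the others at 3.51 to 3.69, for PPL at 2.83 TPM, with the others at 1.49 to 1.70, and for ZC3H12A-DT at 24.2 TPM, with the others at 14.04 to 14.6. The low library at that time was siRNA 2 replicate 1 for SPOCK1, at 0.87 TPM beside 1.68 to 1.79, and for THBS1, at 2.34 TPM beside 3.45 to 3.54. In siRNA 3 replicate 1, CRYM was low at 4.61 TPM beside 6.85 to 7.31, and FGFR3 was high at 4.28 TPM beside 2.98 to 3.18. DEFB132 was high in siRNA 3 replicate 2, at 4.68 TPM beside 3.04 to 3.27.

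At 144 h, TGM2 was high in siRNA 3 replicate 1, at 4.03 TPM beside 2.47 to 2.60, and SERINC5 was low in siRNA 3 replicate 2, at 98.8 TPM beside 177 to 186. All 10 of these libraries still lay above both si-NT libraries of their time, as the rule requires.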

How the results depend on the processing

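The number of members, 86, fell to 32 after rescaling to the ERCC spike-ins, 16 with a fold limit of 3 and 39 with a minimum of 5 TPM. It rose to 354 with a fold limit of 1.5 and to 164 with no minimum. With 1 library left out it ran from 67 to 166. Each siRNA alone gave 125 (siRNA 2, with 75 of the 86) and 78 (siRNA 3, with 61). The 34 members with a call between the times in depleted cells became 2 with the spike-ins, 18 with no filter on low values and 20 of 39 with a mean of at least 5 TPM, and 18 to 37 with 1 library left out. The cause of these changes was not tested. In the time test, 15 of the 34 kept their call in every fit with a library left out. The replicate numbers did not pair the libraries: their differences correlated at -0.229 to 0.30 over 15 pairs of groups, and the replicate block gave 32 calls between the times, all among the 34, and 0 in each other test. Of 698 refits of the 34 genes, 147 lost the call and 0 changed direction. Of 1100 refits of the depleted against si-NT log2 folds, 53 moved by more than the replicate SD and 0 changed direction. The rule had largely fixed the direction of these folds. Counts of members that differed between the siRNAs, or between times in si-NT, were 0 in every alternative. For single list genes, rescaling to the spike-ins removed every call of a higher gene in all lists at 144 h. Unknown depth and 2 si-NT libraries a time limit what can be detected.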

Other observations

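Another 13 genes, of other biotypes or without a match in the annotation, met the numerical limits of the rule. The transcribed pseudogene ENSG00000216775 (chr6:52530072-52531676, plus strand, GRCh37) was at 4.89 and 5.26 TPM in si-NT and 18.5, 30.9, 30.9 and 20.9 TPM in depleted libraries at 72 h. At 144 h it was at 4.69 and 5.54 TPM in si-NT and 78.7, 52.5, 80.4 and 71.0 TPM in depleted libraries. Its depleted libraries lay apart from si-NT at both times, 4.98-fold and 13.8-fold higher. It ends upstream of the member TMEM14A, which begins at chr6:52535911 on the same strand. PMS2P4, a pseudogene related to the mismatch repair gene PMS2, was 2.33-fold and 3.22-fold higher, and its reads may be shared with near-identical copies. ZDHHC8BP, a pseudogene of a palmitoyltransferase, was 2.05-fold and 6.39-fold higher.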
